A study of Homo sapiens with 12 samples.

Results

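The nuclear genes for the subunits of the mitochondrial respiratory chain and ATP synthase were followed in HT1080 cells, an established human fibrosarcoma line, in 2 RNA sequencing experiments. The members were taken by symbol: every gene listed for both experiments whose name starts with NDUFA, NDUFB, NDUFC, NDUFS, NDUFV, UQCR, ATP5, SDHA, SDHB, SDHC or SDHD, or with COX followed by 4 to 8 and a letter. Of 103 genes that matched, 12 assembly factors and 4 pseudogenes were left out, so 87 of the 15459 genes listed in both experiments were members. Of these, 81 were subunit genes, 37 of complex I, 4 of complex II, 9 of complex III, 14 of complex IV and 17 of complex V. The other 6 were the ATP synthase inhibitor ATP5IF1, the read-through genes ATP5MF-PTCD1 and NDUFC2-KCTD14, and the antisense or divergent transcripts NDUFB2-AS1, NDUFV2-AS1 and NDUFA6-DT. NDUFA4 was counted with complex IV, of which its protein is a subunit. Subunits encoded by the mitochondrial genome were not analysed here.

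In one experiment, PMA (phorbol 12-myristate 13-acetate, a phorbol ester that activates protein kinase C) was applied at 40 nM to the cells of 3 libraries, and 3 libraries came from control cells. In the other, ConA (Concanavalin A, a plant lectin that binds mannose-rich glycans at the cell surface) was applied at 40 µg/mL to the cells of 3 libraries, and 3 more served as its own controls. Treatment lasted 24 h, and all 4 groups are labelled wild type and were kept in low-serum medium depleted of biotin. The levels are normalized counts per gene, scaled separately for each experiment and not corrected for gene length, so they are compared here within a gene and within an experiment. The libraries held an estimated 33635937 to 45592979 reads. No label says that the 3 libraries of a group came from separate cultures, so p-values measure the spread between these libraries, which may be technical. PMA control replicate 3 stood apart from the other PMA controls, with a median member level 0.12 lower on the log2 scale than the control mean, against 0.04 and 0.08 higher in the other 2.

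The respiratory chain passes electrons from NADH and succinate to oxygen through complexes I to IV and pumps protons across the inner mitochondrial membrane, and complex V uses the proton gradient to make ATP. Complexes I, III, IV and V combine a few subunits encoded in mitochondrial DNA with many encoded in the nucleus, whereas complex II, succinate dehydrogenase, is wholly nuclear and also works in the citric acid cycle. The factors NRF1, the ETS-family protein GABP, YY1 and the estrogen-related receptors are known to act on promoters of nuclear subunit genes, and tumour lines such as HT1080 vary in how far they rely on respiration.

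Promoters of the members were searched for the recognition letters of these factors. Whether the factors took part in the changes with either treatment was not tested. Promoter sequences from RefSeq on GRCh38.p14, running from 250 bases before to 50 bases after the annotated start, were at hand for 64 of the 81 subunit genes. The NRF1 letters GCATGCGC stood on either strand in 13 of the 64 (20.3%), against 5.22% of 11757 promoters of genes listed in both experiments. The YY1 letters AAGATGG stood in 16 (25%), against 7.26%. The estrogen-related receptor letters AAGGTCA stood in 8 (12.5%), against 2.60%. The ETS letters CCGGAAG stood in 19 (29.7%), against 18.1%. The NRF1 letters can match both strands at overlapping positions, and a promoter was counted once per motif. A match is a stretch of letters and not a shown binding site. The 250 bases before the start are given for 5 members, with every match in capitals. In these bases SDHB holds 3 kinds of match, with a YY1 match after the start that is not shown, and ATP5PF holds 3. NDUFB4 holds an overlapping NRF1 pair and a receptor match, and ATP5MC2 of the ATP synthase c ring holds 1 NRF1 match. SDHA, the subunit whose level ConA moved least, holds no exact match. Of the 3 complex I members with the deepest falls with ConA, NDUFB10 and NDUFA2 also held none in their promoters, and NDUFA13 held 1 ETS match.
SDHB (chr1:17054033-17054282, minus strand): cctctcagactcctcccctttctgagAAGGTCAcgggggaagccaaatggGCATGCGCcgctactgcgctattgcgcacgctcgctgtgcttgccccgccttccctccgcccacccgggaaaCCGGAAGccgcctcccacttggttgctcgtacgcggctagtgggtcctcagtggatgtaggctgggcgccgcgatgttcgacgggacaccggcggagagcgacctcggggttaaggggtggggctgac
ATP5PF (chr21:25735055-25735304, minus strand): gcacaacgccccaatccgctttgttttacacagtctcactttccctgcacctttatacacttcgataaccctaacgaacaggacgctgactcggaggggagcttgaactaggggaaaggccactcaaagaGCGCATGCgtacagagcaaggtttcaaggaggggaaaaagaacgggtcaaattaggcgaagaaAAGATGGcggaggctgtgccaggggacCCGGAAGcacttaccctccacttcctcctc
NDUFB4 (chr3:120596086-120596335, plus strand): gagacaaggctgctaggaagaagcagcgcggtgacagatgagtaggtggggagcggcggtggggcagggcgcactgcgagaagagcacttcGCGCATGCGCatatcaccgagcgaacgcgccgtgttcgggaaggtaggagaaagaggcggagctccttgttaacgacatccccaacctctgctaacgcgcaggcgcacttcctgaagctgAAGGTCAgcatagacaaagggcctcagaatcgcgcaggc
ATP5MC2 (chr12:53676084-53676333, minus strand): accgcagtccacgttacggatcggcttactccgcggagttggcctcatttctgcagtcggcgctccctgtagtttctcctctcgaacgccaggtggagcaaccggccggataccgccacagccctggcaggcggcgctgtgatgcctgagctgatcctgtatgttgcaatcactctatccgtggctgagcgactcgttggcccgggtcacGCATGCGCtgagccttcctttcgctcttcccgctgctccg
SDHA (chr5:218070-218319, plus strand): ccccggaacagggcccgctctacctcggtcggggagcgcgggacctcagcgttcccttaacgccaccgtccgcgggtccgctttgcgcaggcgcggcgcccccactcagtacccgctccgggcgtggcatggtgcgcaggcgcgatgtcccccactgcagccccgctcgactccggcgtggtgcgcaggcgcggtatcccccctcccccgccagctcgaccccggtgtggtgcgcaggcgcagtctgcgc
The median log2 fold change with ConA was −0.55 for the members with the NRF1 letters and −0.52 for those without, −0.57 and −0.49 for the ETS letters, −0.57 and −0.52 for YY1, and −0.47 and −0.53 for the receptor letters. No test was made of these differences.

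ConA lowered nearly the whole set. Of 86 members tested, 82 (95.3%) were lower than in the ConA controls at an adjusted p of at most 0.05 and none was higher, where 32.5% of the 15139 genes tested were lower and 32.8% higher. At an unadjusted p of at most 0.05 the count of higher members was also 0, and no other tool was run. In 82 members each ConA library lay below each of its controls, which held for 34.4% of all genes. The median log2 fold change of the members was −0.52, so that the median member fell by 30.2%, and the middle 50% of members lay between −0.65 and −0.38, while the median of all genes was −0.00. The summed normalized counts of the subunit genes were 416284 ± 18547 (SD, n = 3) in the ConA controls and 283099 ± 20143 (n = 3) with ConA. As a share of all normalized counts of a library, the subunits held 0.970% ± 0.036 (n = 3) in the controls and 0.691% ± 0.045 (n = 3) with ConA. In bulk RNA, less of a transcript per cell and fewer cells that make it cannot be told apart.

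Each of the 3 ConA libraries showed the shift. Their median member level lay 0.41, 0.54 and 0.64 below the control mean on the log2 scale, and the controls lay between 0.06 below and 0.08 above it. The falls were moderate in size: under a stricter rule, a log2 fold change of at least 1 in either direction and an adjusted p of at most 0.0001, only 2 members passed, NDUFA4L2 and ATP5PB, against 8.71% of all genes. Of the 82 lower members, 78 stayed past the threshold under each of 14 other settings of the fit, and NDUFS1, NDUFV2, NDUFV3 and NDUFC2-KCTD14 did not. Beside these falls, the summed level of the 7 listed mesenchymal marker genes, among them VIM, FN1 and CD44, high in both experiments, was 427141 to 508236 in the controls and 296112 to 318583 with ConA, and their part in the result was not tested. VIM and FN1 carry that sum, at means of 138419 and 268826 in the controls and 79796 and 166724 with ConA, while COL1A2 went from 662 to 1252 and COL6A1 from 15315 to 18185. With PMA the sum over all 8 of that list was 447802 to 469473, against 422877 to 435335 in its controls, where VIM had a mean of 195751 in the controls and 275216 with PMA and FN1 of 167348 and 113452. Of the markers of other cell types, the epithelial sum was 27746 to 29636 in the PMA controls and 15694 to 16331 with PMA, with EPCAM and CDH1 not listed there. It was 39292 to 40858 and 34692 to 37609 in the ConA experiment. KRT8 and KRT18 carry these sums, at means of 15196 and 13524 in the PMA controls and 6528 and 9277 with PMA. In the ConA experiment they went from 23741 to 21315 and from 16073 to 14490. KRT19 went from 101 to 114 with PMA and from 47.6 to 73.9 with ConA. CLDN4 went from 111 to 67.5 with PMA and from 99.8 to 128 with ConA. Leukocyte markers, 5 of 8 listed with PMA and 2 of 8 with ConA, summed to 537 to 584 in the PMA controls and 643 to 1027 with PMA, and to 105 to 140 and 111 to 169 in the ConA experiment. The 2 listed endothelial markers summed to at most 145, and no haemoglobin gene was listed.

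**Figure D1:**
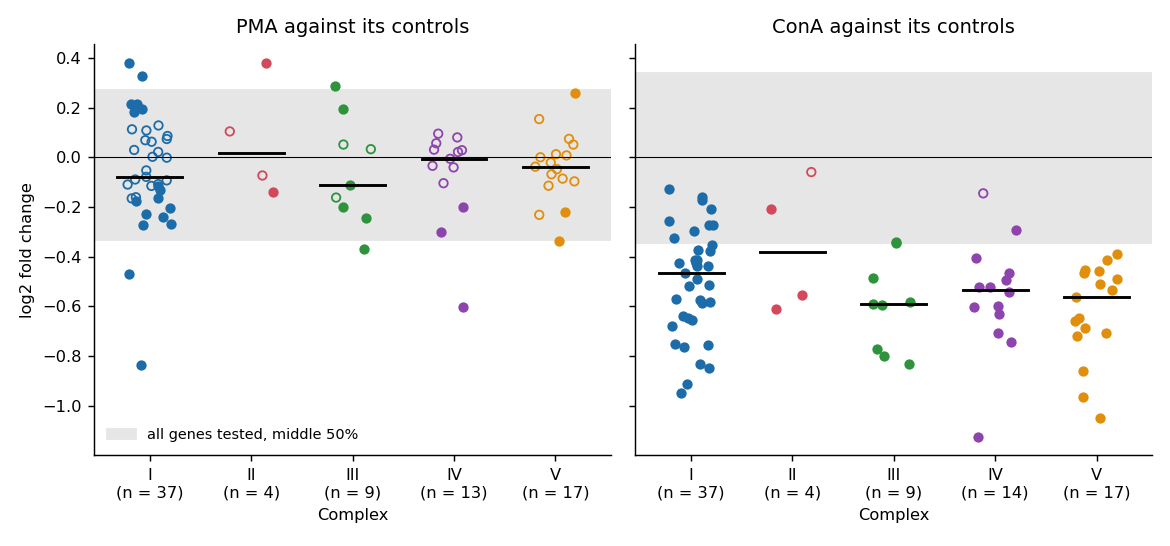
log2 fold change of each subunit gene (vertical axis) by complex (horizontal axis), with PMA on the left and ConA on the right. Filled points passed an adjusted p of 0.05, open points did not, black bars are medians, and the grey band holds the middle 50% of all genes tested. With ConA 79 of 81 subunit genes are filled points below 0, and with PMA most points lie within the grey band.

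All 37 complex I genes were lower with ConA, with a median log2 fold change of −0.46. Complex I takes electrons from NADH. Its 7 listed core subunits, which carry the flavin and the iron-sulfur clusters, ranged from NDUFS1 to NDUFS8. For NDUFS8, a core subunit that holds iron-sulfur clusters, the ConA controls held 3133, 3574 and 3364 normalized counts and the ConA libraries 2125, 1748 and 1803. No library of one group reached the other, and the log2 fold change was −0.83 ± 0.08 (SE, adjusted p = 3.101e-07, limma). NDUFS1, the large iron-sulfur subunit, gave 4089, 4113 and 3822 in the controls and 3577, 3677 and 3740 with ConA. Its groups were also apart, but by little, with a log2 fold change of −0.13 ± 0.05 (adjusted p = 0.045). The flavin-site partner NDUFV2 was close to it, at −0.16 ± 0.06 (adjusted p = 0.042).

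The accessory subunits of complex I, which surround the core and are needed for its assembly or stability were all lower with ConA. The median of the 30 was −0.45, against −0.57 for the 7 core genes, and the 3 members of the complex with the deepest falls were accessory. NDUFA13, also known as GRIM-19, had 6296, 7292 and 7017 normalized counts in the controls and 4202, 3243 and 3280 with ConA, a log2 fold change of −0.95 ± 0.09 (adjusted p = 3.88e-07). NDUFB10 of the membrane arm fell from 5775 ± 383 (SD, n = 3) to 3079 ± 408 (n = 3), and NDUFA2 from 3288 ± 185 to 1831 ± 158. Their log2 fold changes were −0.91 ± 0.08 and −0.85 ± 0.07. In each of these 3 genes the ConA libraries lay below the lowest control.

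Complex II was split. It oxidises succinate with the catalytic subunits SDHA and SDHB, held to the membrane by SDHC and SDHD. SDHA, the flavoprotein, was 8147, 8265 and 7957 in the ConA controls and 8180, 7426 and 7802 with ConA. The groups overlapped, and the log2 fold change of −0.06 ± 0.05 did not pass (adjusted p = 0.338). SDHB, the iron-sulfur subunit, was 3077, 3526 and 3168 in the controls and 2365, 2170 and 2111 with ConA, a log2 fold change of −0.55 ± 0.07 (adjusted p = 4.228e-06). SDHC fell by 34.5% and SDHD by 13.3%. Reads of SDHA can be shared with its pseudogenes, of which SDHAP1 had a log2 fold change of 0.11 and SDHAP2 of 0.41 with ConA, both at means of at most 423 normalized counts in each group.

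In complex III, which passes electrons from ubiquinol to cytochrome c, all 9 genes were lower with ConA, with a median of −0.59. UQCRC1, a core protein, had 10323, 11205 and 11136 normalized counts in the controls and 7607, 7020 and 7166 with ConA, a log2 fold change of −0.58 ± 0.05 (adjusted p = 4.095e-07). The other core protein, UQCRC2, was at −0.35, and the Rieske iron-sulfur protein UQCRFS1 at −0.34. The 5 accessory subunits ran from −0.83 to −0.49, with a median of −0.59. The deepest falls among them were those of UQCRH, the hinge protein, at −0.83 ± 0.08 and UQCRQ at −0.80 ± 0.09 on the log2 scale. UQCRHL is a near-identical copy of UQCRH, so their separate values are uncertain. It gave −0.77 ± 0.08.

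In complex IV, cytochrome c oxidase, 13 of 14 genes were lower with ConA, with a median of −0.53. COX4I1, the general form of subunit 4, had 17548, 20531 and 20098 normalized counts in the controls and 13980, 12251 and 11433 with ConA. No library crossed between the groups, and the log2 fold change was −0.63 ± 0.08 (adjusted p = 5.504e-06). COX5B was at −0.71 ± 0.08 and COX5A, with the smallest change among the 13, at −0.29 ± 0.06. COX7A2L, a relative of COX7A2 known for its place in respiratory supercomplexes, was at −0.74 ± 0.06, and COX7A2 itself at −0.52 ± 0.08.

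The paralog with the deepest fall of all members was NDUFA4L2, a hypoxia-induced relative of NDUFA4. It had 167, 204 and 202 normalized counts in the controls and 105, 69.0 and 89.9 with ConA, a log2 fold change of −1.12 ± 0.16 (adjusted p = 2.412e-05). NDUFA4 went from 2292 ± 120 to 1733 ± 111 (SD, n = 3), which is −0.40 ± 0.06 on the log2 scale. The member of complex IV that did not pass was COX6B2, the testis form of COX6B1, at 37.5, 46.0 and 38.1 in the controls and 34.0, 30.3 and 46.7 with ConA. These groups overlapped at a low level, and its main form COX6B1 was at −0.47 ± 0.07.

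All 17 complex V genes were lower with ConA, with a median of −0.56. ATP5F1B, the catalytic beta subunit of the F1 head, had 35685, 37183 and 35440 normalized counts in the controls and 23937, 22498 and 22738 with ConA, a log2 fold change of −0.65 ± 0.05 (adjusted p = 1.013e-07). The 5 F1 genes ran from ATP5F1D at −0.71 to ATP5F1E at −0.46. ATP5PB, the b subunit of the peripheral stalk that holds the head still, had 6301, 6447 and 5999 in the controls and 3161, 3000 and 2903 with ConA. Its mean level fell by 51.7%, the second largest fall of the set, with a log2 fold change of −1.05 ± 0.05 (adjusted p = 8.698e-10). Of the membrane subunits, ATP5MPL was at −0.96 ± 0.07 and ATP5ME at −0.86 ± 0.10.

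**Figure D2:**
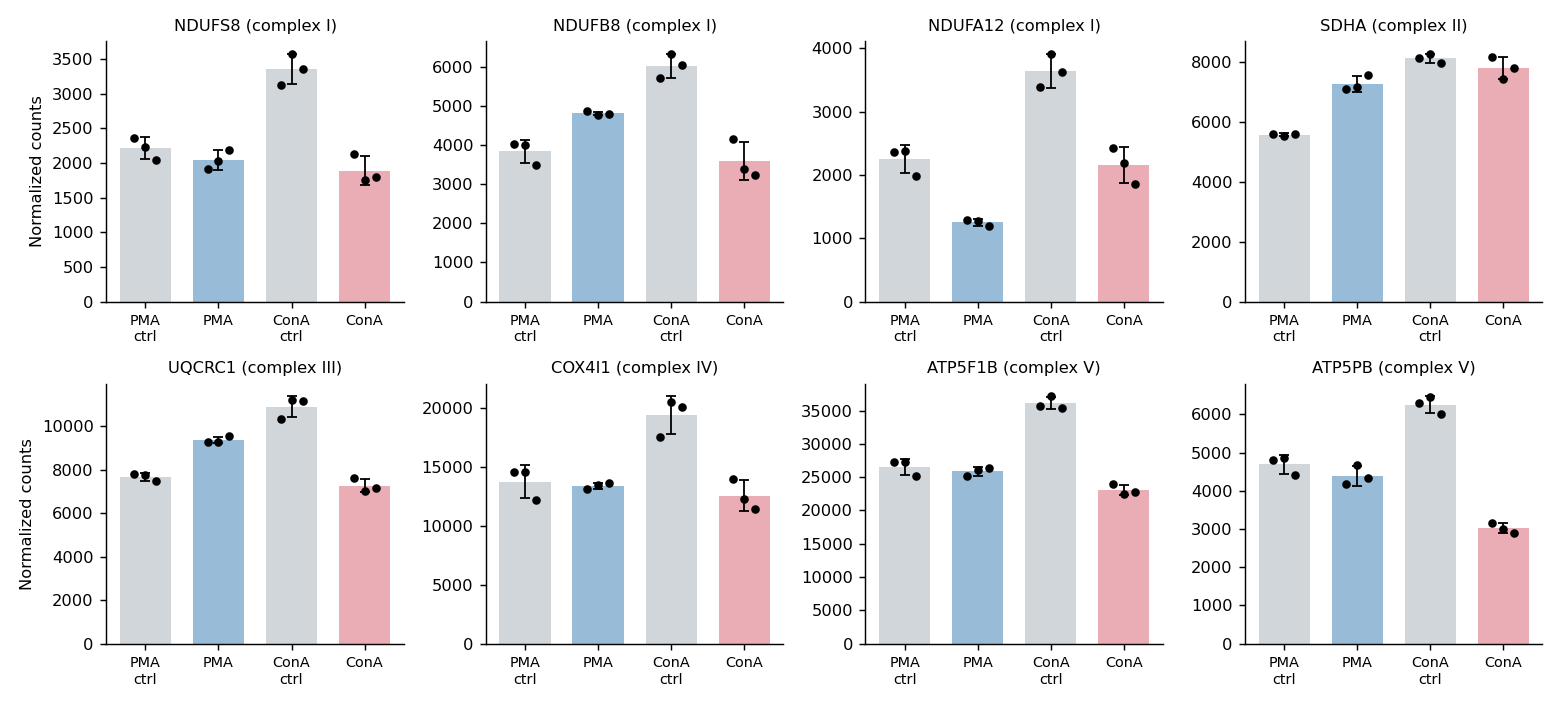
Normalized counts (vertical axis, from 0) of 8 subunit genes in the 4 groups. Bars are means, error bars SD and points the 3 libraries of a group. The ConA libraries of ATP5PB sit between 2903 and 3161, all below the controls, and those of SDHA overlap their controls.

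Of the 6 members that are not subunits, ATP5IF1, which blocks ATP hydrolysis by complex V, was at −0.38 and NDUFC2-KCTD14 at −0.20 with ConA, both past the threshold. NDUFA6-DT, a divergent transcript of NDUFA6, was at −0.56 (adjusted p = 0.00534). ATP5MF-PTCD1 and NDUFB2-AS1 did not pass, at mean levels of 7.50 to 45.4 normalized counts in the ConA experiment, and NDUFV2-AS1 was under the minimum mean of 10. Reads of read-through, antisense and overlapping genes cannot be told apart from those of their neighbours where strand and sharing rules are not stated. ATP5MF-PTCD1 became a call of higher level without ConA replicate 1, which made 1 member higher in place of 0.

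PMA moved fewer members, in both directions and by less. Of 86 tested, 10 were higher and 23 lower at an adjusted p of at most 0.05 and 53 did not pass, where 32.8% of the 15153 genes tested were higher and 30.5% lower. The share of members called lower, 26.7%, was close to that of all genes, and the share called higher, 11.6%, was below it. No member passed the stricter rule, against 8.65% of all genes, and 33 passed at the first rule. Each PMA library lay below each control in 20 members and above it in 12, against 33.1% and 34.8% of all genes. The median log2 fold change was −0.04 for the members and 0.00 for all genes. Without PMA control replicate 3 the count of lower members became 41, and it was 11 without PMA control replicate 1, 14 without PMA control replicate 2 and 15 without PMA replicate 1. With quantile normalization in place of the deposited scaling, 6 members were higher and 38 lower. Of the 23 lower members, 11 stayed past the threshold in each fit without 1 library, as did all 10 of the higher ones.

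The summed subunit level was 302748 ± 21144 (SD, n = 3) in the PMA controls and 298869 ± 7399 (n = 3) with PMA, which is within the spread of the controls. As a share of the library the subunits held 0.820% ± 0.057 and 0.744% ± 0.018, since the summed level of all genes was higher with PMA.

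**Figure D3:**
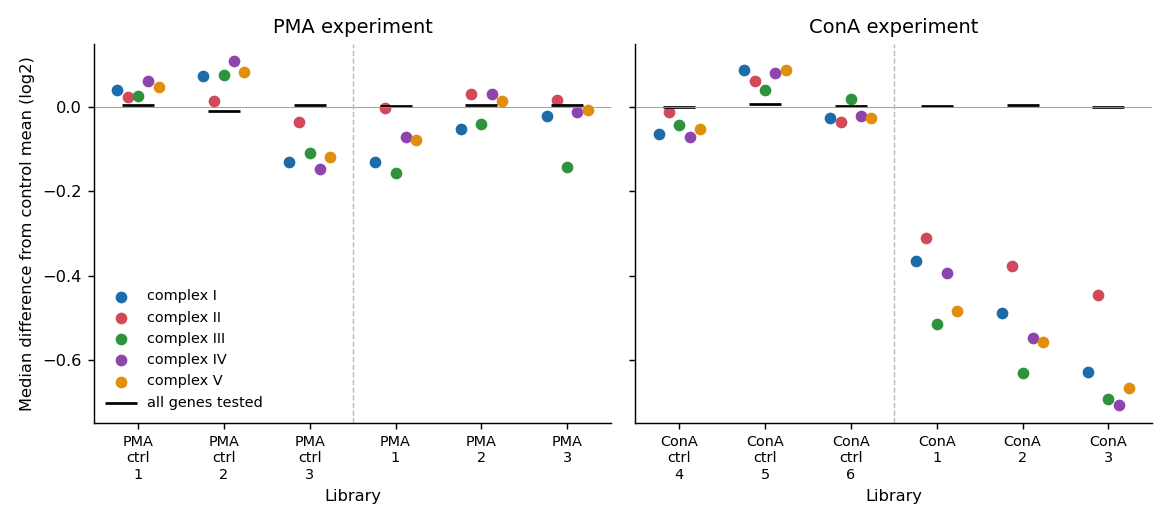
Median difference of each library from the mean of its controls (vertical axis, log2), for each complex and for all genes tested, with the libraries of each experiment along the horizontal axis. The points of the 5 complexes in the 3 ConA libraries lie below those of their controls, while the bars for all genes stay near 0, and PMA control 3 lies lower than the other PMA controls in every complex.

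The members that rose with PMA included the catalytic subunit SDHA of complex II and the core protein UQCRC1 of complex III. SDHA had 5591, 5538 and 5611 in the controls and 7089, 7156 and 7577 with PMA, a log2 fold change of 0.38 ± 0.04 (adjusted p = 5.25e-06). UQCRC1 went from 7804, 7752 and 7467 to 9273, 9264 and 9533, a log2 fold change of 0.29 ± 0.04 (adjusted p = 3.526e-05). In both genes every PMA library was above every control. Their partners differed: SDHB did not pass, at 0.10, and UQCRC2 was lower, at −0.11, a call lost in some other settings of the fit.

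NDUFB8, an accessory subunit of the membrane arm often used as a marker of assembled complex I, went from 4020, 3990 and 3498 to 4858, 4767 and 4804, a log2 fold change of 0.33 ± 0.05 (adjusted p = 2.144e-04). Other risers were ATP5MC1 at 0.26, NDUFAB1, the mitochondrial acyl carrier protein, at 0.22, NDUFS1 at 0.21, NDUFV2 at 0.20, UQCRHL at 0.19 and NDUFB4 at 0.18. ATP5MC1, NDUFB8, SDHA and UQCRC1 were past the threshold under each of 15 other settings of the fit.

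NDUFA12, an accessory subunit of the complex I matrix arm, gave the deepest fall with PMA. Its controls held 2365, 2384 and 1990 normalized counts and the PMA libraries 1293, 1276 and 1191. The groups were well apart, and the log2 fold change was −0.84 ± 0.07 (adjusted p = 9.734e-07). Its mean level fell by 44.2%. NDUFA4L2 went from 182, 175 and 207 to 121, 120 and 129, at −0.60 ± 0.11, and NDUFB10 from 3695, 3709 and 3459 to 2522, 2459 and 2872, at −0.47 ± 0.06. UQCR10 of complex III was at −0.37, ATP5MC2 at −0.34 and COX5B at −0.30.

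By complex, 6 genes were higher with PMA and 11 lower of 37 in complex I, 1 and 1 of 4 in complex II, 2 and 4 of 9 in complex III, 0 and 3 of 13 in complex IV, and 1 and 2 of 17 in complex V. Of all genes tested with PMA, 32.8% were higher and 30.5% lower. The shares in complex I were 16.2% and 29.7%. The medians with PMA ran from −0.11 in complex III to 0.02 in complex II. With ConA the order was complex III, V, IV, I and II from the deepest fall up, at −0.59, −0.56, −0.53, −0.46 and −0.38. The order of III, IV and V changed under quantile normalization, with length and GC trends taken out, and without ConA replicate 1, 2 or 3, whereas complexes I and II had the smallest falls under each of these. The middle 50% of the members overlapped between neighbours in that order, and the complexes were not tested against each other. Within complex II the medians rest on 4 genes.

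The c ring of complex V is a rotor of identical copies of 1 protein, and ATP5MC1, ATP5MC2 and ATP5MC3 encode the same mature protein behind different import sequences. ATP5MC1 had 958, 982 and 858 normalized counts in the PMA controls and 1091, 1127 and 1124 with PMA, while ATP5MC2 had 4464, 4342 and 3973 and then 3254, 3470 and 3385. One gene was above and the other below its controls in every PMA library, at 0.26 ± 0.06 and −0.34 ± 0.05 on the log2 scale. ATP5MC3 was at 0.05 ± 0.04 and did not pass (adjusted p = 0.317). With ConA all 3 were lower, at −0.66, −0.72 and −0.39.

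PMA and ConA were applied in separate experiments, so a difference between their effects cannot be told apart from one between the experiments. The log2 fold change with PMA less that with ConA was tested in 1 fit of all 12 libraries. It was above 0 for 71 of 86 members and below 0 for 1 at an adjusted p of at most 0.05, where 30.4% and 30.7% of 15030 genes were. The median difference was 0.44 on the log2 scale, against −0.01 for all genes. All 17 complex V genes, 13 of 14 in complex IV, 8 of 9 in complex III, 3 of 4 in complex II and 30 of 37 in complex I were above 0. Of the 85 members tested in both experiments, 9 were higher with PMA and lower with ConA, 23 were lower with both, and 50 did not pass with PMA and were lower with ConA. Over 14661 genes with a test in both, these combinations held 7.05%, 14.9% and 11.3%. SDHA was higher with PMA and did not pass with ConA.

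Only NDUFB8 passed the stricter rule for the difference, which 10.6% of all genes did. Its difference was 1.08 ± 0.11 (SE, adjusted p = 1.363e-07). NDUFA13 was at 0.98 ± 0.13, UQCRHL at 0.97 ± 0.10, ATP5MPL at 0.96 ± 0.13 and ATP5PB at 0.95 ± 0.08. UQCRC1 differed by 0.87 ± 0.06. NDUFA12, NDUFA5, SDHD and UQCR10 were lower with both treatments, and their difference did not pass, at −0.07 ± 0.12, 0.08 ± 0.11, 0.07 ± 0.07 and 0.12 ± 0.12. The 1 member with a difference below 0 was COX6B2, which had 22.1, 10.7 and 17.2 normalized counts in the PMA controls and 0, 3.8 and 3.6 with PMA, under the minimum mean in that experiment. Its difference of −2.46 ± 0.67 (adjusted p = 0.00446) was fitted at a level where the pseudocount sets much of the size, −3.68 with a pseudocount of 0.1 and −0.97 with 10.

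**Figure D4:**
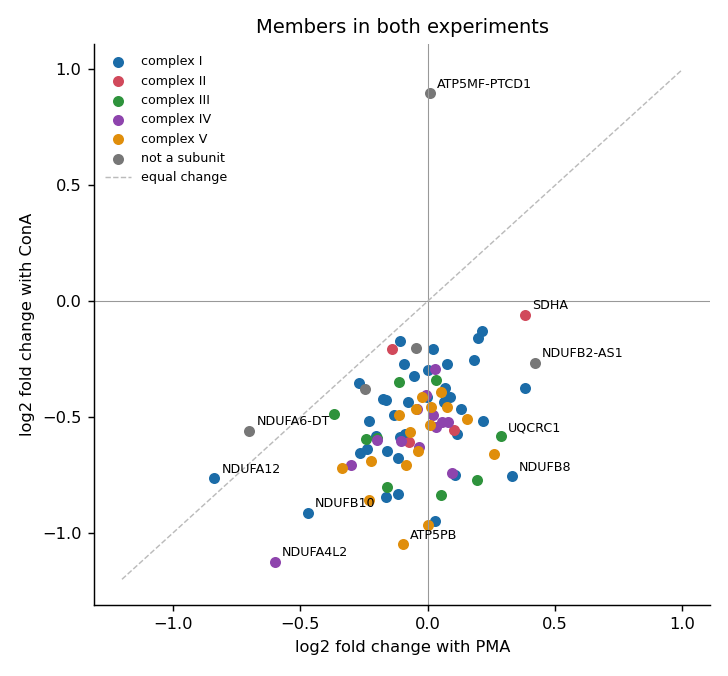
log2 fold change with ConA (vertical axis) against that with PMA (horizontal axis) for the members tested in both experiments, coloured by complex. Nearly all points lie below 0 on the vertical axis and below the dashed line of equal change, with SDHA nearest to 0 among the subunits and NDUFA12 close to the line.

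Other mitochondrial genes from lists by function were set beside the subunits, as counts and medians only. For these and the later lists, the shares over all genes tested were 32.8% higher and 32.5% lower with ConA. With PMA the shares over all genes were 32.8% higher and 30.5% lower. Of 40 assembly factors of the complexes, 3 were higher and 26 lower with ConA, with a median of −0.32. NDUFAF8, a complex I assembly factor, was at −1.39, and SCO2, a copper chaperone of complex IV and a known p53 target, was in the other direction at 0.83. With PMA 9 were higher and 11 lower. CYC1, which is cytochrome c1 of complex III itself but is not covered by the name rule, was at −0.57 with ConA. CYCS, cytochrome c, did not pass with ConA (−0.07, adjusted p = 0.283) and was at 0.35 with PMA.

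Of 13 citric acid cycle enzymes, 2 were higher and 9 lower with ConA and 6 were higher and 2 lower with PMA, with medians of −0.25 and 0.12. FH, fumarate hydratase, which acts on the product of complex II, was at 0.61 with PMA and −0.34 with ConA. Of 78 mitochondrial ribosomal proteins, 5 were higher and 50 lower with ConA, with a median of −0.28, and 16 were higher and 11 lower with PMA. The middle 50% of each of these lists reached closer to 0 with ConA than that of the subunits.

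Regulators of mitochondrial genes did not move as 1 group. Of 15, 4 were higher and 5 lower with ConA, and 7 higher and 3 lower with PMA. The ConA shares, 26.7% and 33.3%, were close to those of all genes, 32.8% and 32.5%. With PMA the shares were 46.7% and 20%, against 32.8% and 30.5% of all genes. PPARGC1A, the coactivator PGC-1alpha, went from 103 ± 5.8 (SD, n = 3) to 36.6 ± 11 with PMA, a log2 fold change of −1.50, and from 90.7 ± 17.0 to 58.8 ± 4.3 with ConA, at −0.60. Of the factors whose letters were searched for, NRF1 and YY1 did not pass with either treatment, nor did GABPA, the DNA-binding subunit of GABP. Its partner GABPB1 was at 0.24 with PMA and 0.27 with ConA, both past the threshold, and ESRRA was at 0.39 with PMA and −0.25 with ConA. With ConA, MYC was at −0.79, TFB1M at −0.91 and TFB2M at −0.41, while TFAM, which packages mitochondrial DNA and takes part in its transcription, was at 0.33 and PPRC1 at 0.48.

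Outside mitochondria, all 81 cytoplasmic ribosomal protein genes tested were lower with ConA, with a median of −0.85, and 24 of them passed the stricter rule. The 34 constitutive proteasome genes, also a large complex, had a median of −0.00 with ConA, 8 higher and 10 lower, and of 0.25 with PMA, 27 higher and 2 lower. The coding transcripts of the members were short, with a median of 708 nt against 1875 nt for the genes tested with ConA, and 65 members were under 1000 nt. The 3024 other genes under 1000 nt had a median log2 fold change of −0.07 with ConA. With the trend on transcript length taken out, an adjustment chosen after seeing the data, the median of the members with ConA was −0.42 in place of −0.52.

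**Figure D5:**
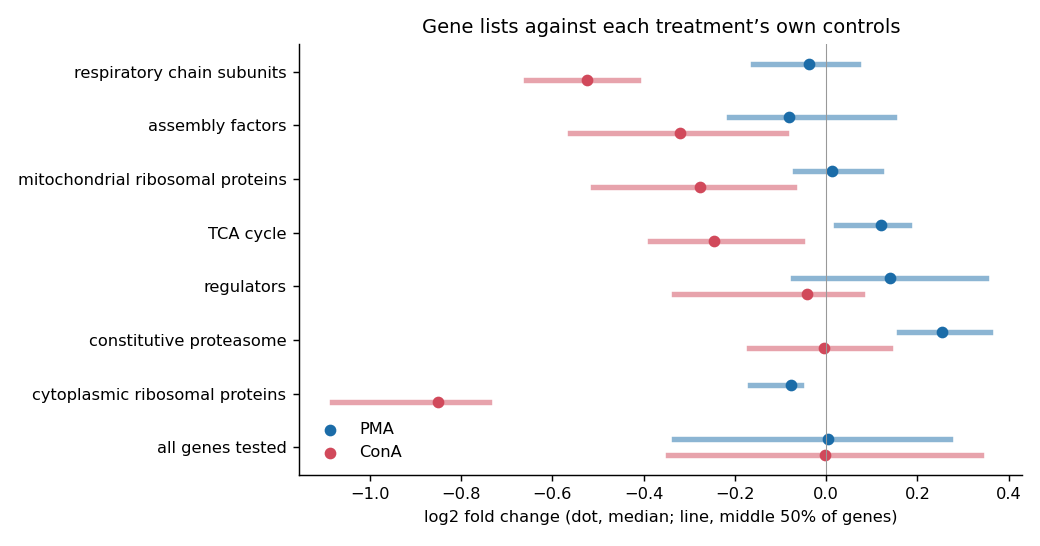
Median log2 fold change (dots) and the middle 50% of genes (lines) for each list, with PMA in blue and ConA in red. The subunits lie at −0.52 with ConA, below the other mitochondrial lists and above the cytoplasmic ribosomal proteins at −0.85.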

How the data were processed

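RNA was taken from HT1080 cells, enriched for poly(A) and sequenced by a service company. The authors deposited signal values, which are normalized counts for each gene symbol, divided by 1 factor per library, in 2 tables of 6 libraries normalized apart. The submitters' processing notes list STAR, Bowtie2, Partek and DESeq2 and the builds hg19 and mm10 without their roles. The annotation and the counting are not given in the sources used here. The estimated factors turned 80.2% to 82.6% of values between 5 and 60 into whole numbers within 0.02, so reads were not recovered and no count model was used. Replicate libraries of a group differed by 3.8 to 18.9 times the sampling variance, so none was a copy of another.

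Values were analysed as log2(value + 1) with limma 3.58.1 in R 4.3.3, with a variance trend over the mean level, for genes whose mean reached 10 normalized counts, and p-values were adjusted by Benjamini-Hochberg over all genes tested. Fold changes on this scale understate those of low genes. A linear contrast over the 12 libraries tested the change with PMA less that with ConA. An exact permutation test of 3 against 3 libraries cannot give a two-sided p below 0.1 and was not used. The steps were run on simulated data with 200 changed genes. The simulation held no shift common to a library, so it does not show how such a shift acts on the calls. Medians and counts describe the lists, without a test. Genes were named by rule: per treatment the 3 largest rises and falls past the threshold in complexes I, III, IV and V, the 4 SDH genes, members past the stricter rule, paralogs with their main forms, the c ring, the 5 largest differences and members under the minimum. NDUFS1, NDUFS8, NDUFV2, NDUFV3, NDUFB4, UQCRC2, UQCRFS1, COX5A, F1 genes, the members that are not subunits and genes of the other lists were named after their values were seen. Members and lists were chosen with earlier results of these data known. Alternatives changed the pseudocount, the minimum, the scaling, the variance trend, the libraries, the replicate block and the call rule. Transcript lengths came from GENCODE 29. Figures were drawn with matplotlib 3.10.9. One member that the naming rule covers is not reported here.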

Additional observations from a re-analysis of the deposited data

Results flagged for a closer look

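The change in NDUFB8, an accessory subunit of complex I, differed between the experiments in the fit of all 12 libraries. The difference, the change with PMA less that with ConA, was 1.08 on the log2 scale (SE 0.11, adjusted p = 1.363e-07, limma), the only one of the 86 members tested that passed the stricter rule. Every PMA library was above and every ConA library below its own controls. Treatment and experiment cannot be told apart in this difference, since each treatment had its own experiment.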

How the results depend on the processing

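Directions of the medians with ConA and the calls with ConA of the 36 genes named by rule were the same under each alternative at an adjusted p of at most 0.05. NDUFS1, NDUFV2, NDUFV3 and NDUFC2-KCTD14, named outside that rule, lost their ConA call in at least 1 fit. Counts rested on the call rule: under the stricter rule of a log2 change past 1 and 0.0001 for the adjusted p, they were 0 higher and 0 lower with PMA, 2 lower with ConA, and 1 above and 0 below 0 for the difference. A minimum mean of 50 removed COX6B2 and left 0 members with a difference below 0. With PMA, quantile normalization gave 6 higher and 38 lower, and the fit without a variance trend gave 14 lower. Leaving out 1 library gave 11 to 41 lower with PMA, 41 without PMA control replicate 3 and 11 without PMA control replicate 1, and 0 to 1 higher with ConA. For named genes, 21 results with PMA over 7 genes and 11 of the difference over 4 genes no longer passed, most often for COX7C, UQCR11 and NDUFA4L2, and the cause was not tested.

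The PMA medians were near 0 and moved with the scaling. Quantile normalization gave −0.15 for all members, −0.11 for complex II, −0.25 for complex III and −0.19 for complex V. Taking out trends on transcript length, GC and mean level, an alternative added after seeing the data, gave −0.11 for complex II, −0.25 for complex III, −0.12 for complex IV and −0.19 for complex V. Complex II with PMA ranged from −0.00971 to 0.031 when 1 library was left out, lowest without PMA control replicate 3. With ConA, taking out the trend on length, on length and GC, and on length, GC and mean level gave −0.42, −0.42 and −0.40 for all members, −0.27, −0.28 and −0.25 for complex II, −0.49, −0.51 and −0.47 for complex III, and −0.45, −0.47 and −0.43 for complex V. Median centring gave −0.44 for complex II with ConA.

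The replicate block gave 11 higher and 26 lower with PMA, against 10 and 23. Same-numbered PMA and control libraries correlated at −0.06, 0.10 and 0.10 in their deviations from the group means, so the numbers were not taken as pairs, and not every library correlated best with its own number. With ConA the numbers are not shared, and no block was possible. COX6B2, NDUFV2-AS1, ATP5MF-PTCD1 and NDUFB2-AS1 had the lowest levels, and the part of depth in their spread was not tested.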
